A study of Mus musculus with 4 samples.

Results

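The platelet-derived growth factors (PDGFs) and vascular endothelial growth factors (VEGFs), with their receptors, were described in sorted amacrine cells of the mouse retina. The 10 genes were chosen by name from the deposited count table: the PDGF ligands Pdgfa, Pdgfb, Pdgfc and Pdgfd, the PDGF receptors Pdgfra and Pdgfrb, the VEGF ligands Vegfa, Vegfb and Vegfc, and the VEGF receptor Kdr. They are 10 of 55471 genes in that table, and all 10 were among the 17940 genes that passed the filter on low counts. Differences between the cell fractions were in view when they were chosen, so their values are given as a description, with no test.

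Both cell fractions came from C57BL6 mice aged 6 or 7 days that carried the Gbx2-CreERT2-IRES-EGFP allele together with Ai9, a reporter that turns on the red protein tdTomato after Cre has acted. Cells labelled as amacrine cells, interneurons of the inner retina, were sorted on tdTomato and then divided by GFP. There were 2 GFP-positive libraries (replicates 2 and 3) and 2 GFP-negative libraries (replicates 2 and 6), each made from the RNA of 750 to 2500 sorted cells, and no library of other retinal cells or of mice without the allele was analysed here. GFP comes from the Gbx2 allele itself, so the sort and the level of Gbx2 are not independent, and the tdTomato label depends on where and when the inducible Cre was active.

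Total counts were 43272827 to 44689917 in GFP-positive libraries and 41040667 to 41153704 in GFP-negative libraries. Gbx2, the homeobox gene that carries the allele, reached 601.6 and 495.8 CPM (counts relative to library size after TMM scaling) in GFP-positive libraries, against 28.64 and 55.48 CPM in GFP-negative libraries (log2 fold change 3.71 ± 0.44, SE; edgeR quasi-likelihood test, adjusted p = 0.0118). All 12 amacrine markers had counts in all 4 libraries. Pax6, a transcription factor of amacrine cells, had 1970 and 1285 CPM in GFP-positive replicates 2 and 3, against 1468 and 2244 CPM in GFP-negative replicates 2 and 6. The sum over 11 of the amacrine markers, without the most abundant, was 4920 and 4150 CPM in GFP-positive libraries. In GFP-negative libraries it was 3930 and 5810 CPM, and these ranges overlapped. Single markers in this sum ran in opposite directions, with Calb2 higher and Gad1 and Tfap2c lower in GFP-positive libraries. The overlap therefore does not show that amacrine content was alike. All 4 libraries also held rod transcripts, with a sum over 15 rod markers of 10100 and 16900 CPM in GFP-positive libraries, against 8760 and 2140 CPM in GFP-negative libraries.

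PDGFs are dimers that signal through the receptor tyrosine kinases encoded by Pdgfra and Pdgfrb. PDGF-A and PDGF-B are secreted active, whereas PDGF-C and PDGF-D carry a CUB domain that proteases must remove before they bind a receptor. In the developing mouse retina, PDGF-A from neurons draws Pdgfra-bearing astrocytes over the surface, PDGF-B from endothelium recruits Pdgfrb-bearing pericytes, and VEGF-A from astrocytes and neurons guides vessel growth through Kdr (VEGFR2). Kdr is also known to be made by some retinal neurons.

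Promoters of 4 genes are shown as examples of different patterns, and they do not span the whole range. No window was read for Pdgfrb, which had the largest positive log2 fold change of the 10 genes, or for Pdgfb. Pdgfd was lower in GFP-positive cells, Pdgfc was higher there, and Vegfa and Kdr had at least 58.52 CPM in every library. Each is the RefSeq window from 250 bases before to 50 bases after the transcript start, GRCm38.p6, read 5′ to 3′ on the strand of the gene. Capitals mark letters of 5 motifs searched on both strands: the GC box GGGCGG, the TATA box TATAAA, the E-box CANNTG, the homeodomain core TAATTA and the hypoxia element core ACGTG.
Pdgfd, chr9:6168236-6168535, plus strand: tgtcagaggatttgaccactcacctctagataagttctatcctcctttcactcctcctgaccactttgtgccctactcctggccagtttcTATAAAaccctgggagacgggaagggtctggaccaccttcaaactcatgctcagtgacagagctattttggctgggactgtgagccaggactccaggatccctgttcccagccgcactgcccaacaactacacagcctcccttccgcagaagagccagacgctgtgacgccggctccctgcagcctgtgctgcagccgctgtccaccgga
Pdgfc, chr3:81036166-81036465, plus strand: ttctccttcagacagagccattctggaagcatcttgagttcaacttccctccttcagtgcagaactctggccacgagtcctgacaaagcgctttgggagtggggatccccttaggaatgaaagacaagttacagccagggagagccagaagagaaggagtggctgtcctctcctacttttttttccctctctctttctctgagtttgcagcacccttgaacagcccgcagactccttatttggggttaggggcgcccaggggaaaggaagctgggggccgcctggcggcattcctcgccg
Kdr, chr5:75978406-75978705, minus strand: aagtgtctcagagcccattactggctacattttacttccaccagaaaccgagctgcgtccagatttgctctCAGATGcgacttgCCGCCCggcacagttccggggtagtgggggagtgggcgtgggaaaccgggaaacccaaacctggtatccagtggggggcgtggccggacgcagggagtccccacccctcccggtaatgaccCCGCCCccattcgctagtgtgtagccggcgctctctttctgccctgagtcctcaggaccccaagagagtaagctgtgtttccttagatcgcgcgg
Vegfa, chr17:46032328-46032627, minus strand: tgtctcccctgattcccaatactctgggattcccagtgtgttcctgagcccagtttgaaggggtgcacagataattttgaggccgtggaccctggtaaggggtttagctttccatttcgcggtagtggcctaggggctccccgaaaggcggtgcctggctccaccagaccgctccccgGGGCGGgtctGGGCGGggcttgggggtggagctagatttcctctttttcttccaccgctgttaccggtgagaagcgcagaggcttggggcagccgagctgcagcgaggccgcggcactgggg
The Pdgfd window held 1 TATA box, at position -160 with the start base counted as 0, and none of the other motifs. The Pdgfc window held none of the 5. Kdr had 2 GC boxes and 1 E-box, and Vegfa had 2 GC boxes in the window shown. The table holds a second Vegfa window (chr17:46025114-46025413, minus strand, not printed), which held 1 GC box, 2 E-boxes and 1 hypoxia element core, at position -211. No base lay in more than 1 motif match. Among 32851 RefSeq promoters of the same length, 35.7% held the GC box, 13.6% the TATA box, 72.3% the E-box, 5.29% the homeodomain core and 19.6% the hypoxia element core. Content of G and C was 56.7% for Pdgfd, 55.0% for Pdgfc, 60.7% for Kdr and 62.0% for Vegfa, with a median of 52.7% over those promoters. A match is a string of letters and not a site shown to be bound.

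The PDGF ligands were divided between the fractions. Pdgfd had counts of 253 and 169 in GFP-positive cells against 2369 and 2983 in GFP-negative cells, while Pdgfc and Pdgfb lay about 3 times higher in GFP-positive cells and Pdgfa overlapped. In GFP-positive cells Pdgfa held the largest share of PDGF ligand transcripts, and in GFP-negative cells Pdgfd did. The Vegfa and Vegfb levels were high and close in both fractions. Kdr varied more, between 58.52 and 117.7 CPM. By level per kb Kdr stood lower among tested genes, at percentile 71.1 in GFP-positive cells and 64.0 in GFP-negative cells.

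**Figure D1:**
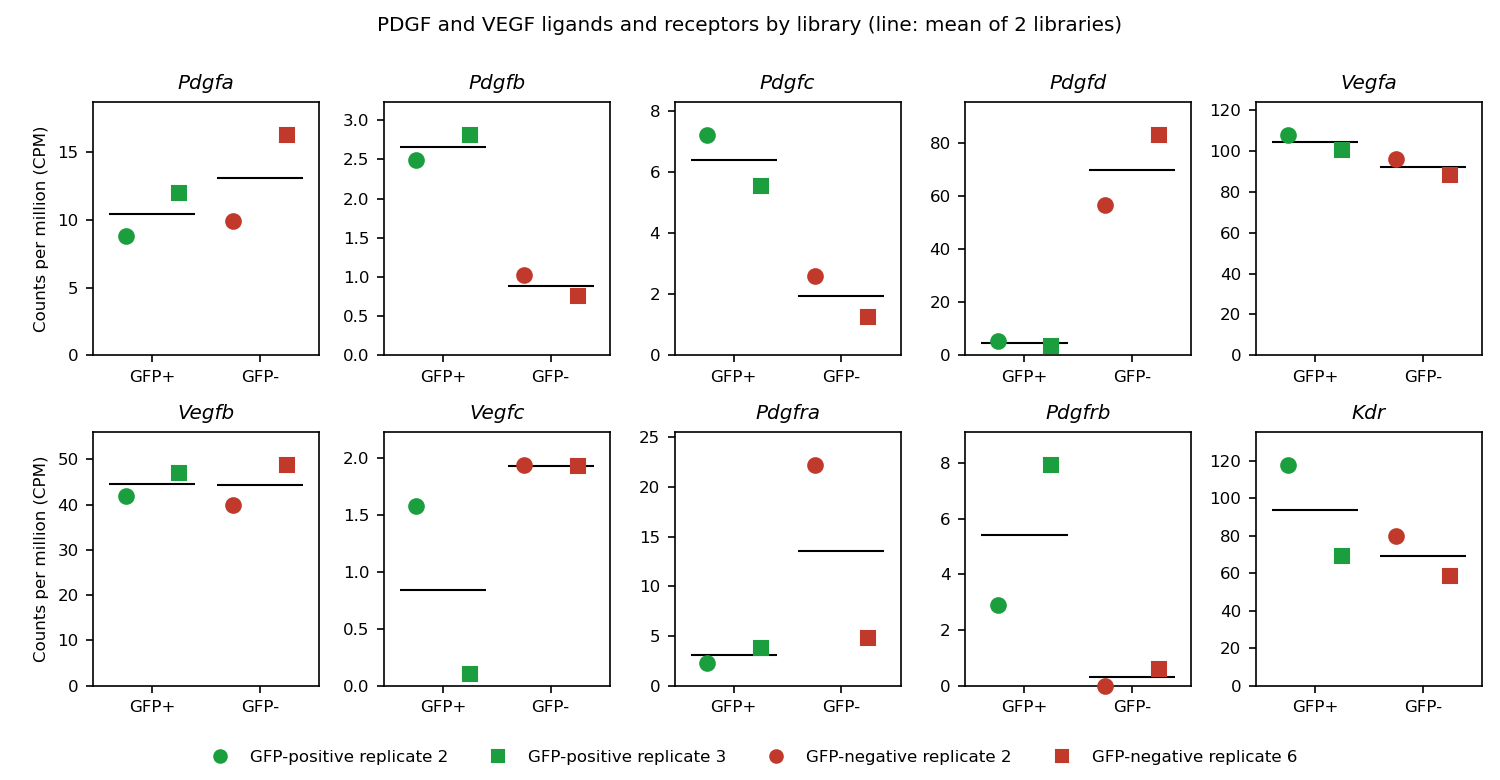
Level of each of the 10 genes in CPM (linear axis from 0, scaled per gene) in each library, with GFP-positive libraries on the left of each panel, GFP-negative libraries on the right, and the mean of each fraction as a line. Pdgfd lies at 5.53 and 3.551 CPM in GFP-positive libraries and at 56.59 and 83.25 CPM in GFP-negative libraries, whereas the 4 values of Vegfb lie between 39.8 and 48.73 CPM, and Pdgfrb lies at 0 in GFP-negative replicate 2.

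Pdgfd (ENSMUSG00000032006, GRCm38 chr9:6168584-6378850, plus strand) encodes the ligand that acts mainly on PDGFR-β. It had 5.53 and 3.551 CPM in GFP-positive replicates 2 and 3, against 56.59 and 83.25 CPM in GFP-negative replicates 2 and 6. Both GFP-negative libraries lay far above both GFP-positive libraries. The means were 4.54 ± 1.40 CPM in GFP-positive cells and 69.92 ± 18.8 CPM in GFP-negative cells (SD, n = 2 each), a log2 fold change of -3.95 ± 0.42 (SE), or 15.4-fold higher in GFP-negative cells. Its log2 fold change ran from -4.32 to -3.64 when any 1 library was left out. Marker sums of Müller glia were 1010 and 1200 CPM in GFP-positive libraries against 1960 and 2270 CPM in GFP-negative libraries (13 genes), but without Dkk3, the most abundant, they overlapped, at 763 and 1070 CPM against 951 and 689 CPM. Those of ganglion cells were 225 and 102 CPM in GFP-positive libraries against 307 and 354 CPM in GFP-negative libraries (10 genes), and likewise overlapped without Nefl, at 130 and 69.8 CPM against 116 and 115 CPM. Among the amacrine markers, Gad1, a GABA-synthesising enzyme, had 154.4 and 69.16 CPM in GFP-positive libraries against 983.9 and 1765 CPM in GFP-negative libraries, and Tfap2c, a transcription factor, had 23.3 and 12.86 CPM against 248.2 and 344.5 CPM. Calb2, a calcium-binding protein of the same list, ran the other way, at 2097 and 2193 CPM in GFP-positive libraries against 84.35 and 142.8 CPM in GFP-negative libraries. The part of these transcripts in the Pdgfd difference was not tested. In bulk RNA of this kind, fewer cells making a transcript and less of it per cell cannot be told apart.

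Pdgfc (ENSMUSG00000028019, chr3:81036416-81214040, plus strand) encodes the other ligand with a CUB domain, which acts mainly on PDGFR-α. Its level was 7.213 and 5.548 CPM in GFP-positive replicates 2 and 3, against 2.604 and 1.256 CPM in GFP-negative replicates 2 and 6, from counts of 330 and 264 against 109 and 45. The fractions did not overlap, and the difference ran opposite to that of Pdgfd, at 6.38 ± 1.18 CPM in GFP-positive cells and 1.93 ± 0.95 CPM in GFP-negative cells (SD, n = 2 each; log2 fold change 1.70 ± 0.66, SE). Between the fractions the ratio of means was 3.31, GFP-positive over GFP-negative. The rod sums above were likewise higher in GFP-positive libraries. A sum over 9 bipolar cell markers was higher there too, at 818 and 1200 CPM in GFP-positive libraries against 695 and 304 CPM in GFP-negative libraries. The horizontal cell sum of 6 markers was 151 and 153 CPM in GFP-positive libraries against 118 and 56.5 CPM in GFP-negative libraries, and overlapped without Sept4, at 56.4 and 27.4 CPM against 31.4 and 21.5 CPM. Their part in the differences of Pdgfc, Pdgfb, Pdgfrb and Vegfa was not tested. The annotated antisense gene that shares exon bases with Pdgfc had 0 counts in every library.

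Pdgfb (ENSMUSG00000000489, chr15:79995874-80014977, minus strand), the ligand of both receptors that endothelium uses to recruit pericytes, was scarce in both fractions. It had 2.492 and 2.816 CPM in GFP-positive libraries, against 1.027 and 0.7535 CPM in GFP-negative libraries, from counts of 114 and 134 against 43 and 27. All 4 values were low, and both GFP-positive values lay above both GFP-negative values (2.65 ± 0.23 CPM in GFP-positive cells and 0.890 ± 0.19 CPM in GFP-negative cells, SD, n = 2 each; log2 fold change 1.56 ± 0.79, SE).

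Pdgfa (ENSMUSG00000025856, chr5:138976014-138997370, minus strand), the PDGFR-α ligand, had 8.852 and 11.98 CPM in GFP-positive libraries and 9.937 and 16.3 CPM in GFP-negative libraries. The ranges overlapped, and the log2 fold change of -0.33 ± 0.47 (SE) changed sign, to 0.07, without GFP-negative replicate 6. The exons of Pdgfa share 813 bases with the antisense gene 6330403L08Rik, which had 65 and 163 counts in GFP-positive libraries and 60 and 68 counts in GFP-negative libraries. The strand setting of the counting was not stated in the sources, so reads of this stretch cannot be assigned to one gene with certainty.

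Set side by side per length of exon, the PDGF ligands changed order between the fractions. Pdgfd made up 26.5% and 16.7% of the summed PDGF ligand level (CPM per kb) in GFP-positive replicates 2 and 3, against 82.0% and 82.4% in GFP-negative replicates 2 and 6. Pdgfa made up 43.0% and 57.0% in GFP-positive libraries and 14.6% and 16.3% in GFP-negative libraries. The share of Pdgfc was 21.5% and 16.2% in GFP-positive libraries, against 2.34% and 0.77% in GFP-negative libraries, and that of Pdgfb was 9.06% and 10.1% against 1.13% and 0.565%. The summed level was 6.61 and 6.73 CPM per kb in GFP-positive libraries and 21.9 and 32.0 CPM per kb in GFP-negative libraries. Shares sum to a fixed whole, so a high share of Pdgfd lowers the others; the CPM values above do not have this property.

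**Figure D2:**
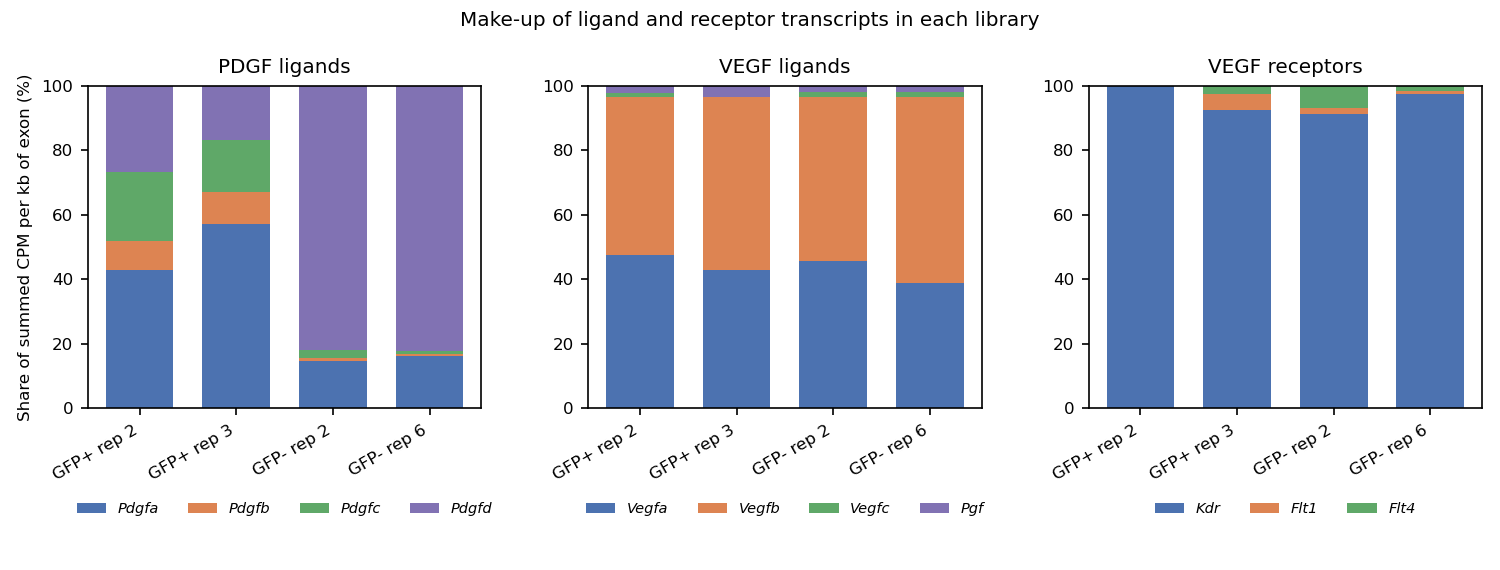
Share of each gene in the summed level (CPM per kb of exon, in percent) of the PDGF ligands, VEGF ligands and VEGF receptors, with 1 bar per library and GFP-positive libraries to the left of GFP-negative ones. Pdgfd fills 82.0% and 82.4% of the PDGF ligand bar in GFP-negative libraries, Vegfa and Vegfb share nearly the whole VEGF ligand bar in all 4 libraries, and Kdr makes up 91.3% or more of the VEGF receptor bar in every library.

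Vegfa (ENSMUSG00000023951, chr17:46016993-46032369, minus strand) encodes the main growth factor for retinal vessels, a ligand of Kdr and Flt1. It reached 108 and 100.7 CPM in GFP-positive replicates 2 and 3, against 96.1 and 88.13 CPM in GFP-negative replicates 2 and 6. The ranges did not overlap, but the difference was small: 104.3 ± 5.16 CPM in GFP-positive cells and 92.1 ± 5.63 CPM in GFP-negative cells (SD, n = 2 each), a log2 fold change of 0.18 with an SE of 0.29.

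Vegfb (ENSMUSG00000024962, chr19:6982473-6987651, minus strand), a ligand of Flt1, had 41.85 and 47.03 CPM in GFP-positive libraries and 39.8 and 48.73 CPM in GFP-negative libraries. The GFP-positive values lay inside the GFP-negative range, with a log2 fold change of 0.01 ± 0.31 (SE) whose sign changed in 5 of 13 other analyses. Vegfc (ENSMUSG00000031520, chr8:54077606-54187096, plus strand), the ligand of Flt4 that drives lymphatic growth, was scarce, with 72 and 5 counts in GFP-positive replicates 2 and 3, against 81 and 69 counts in GFP-negative replicates 2 and 6. Its levels were 1.574 and 0.1051 CPM in GFP-positive libraries and 1.935 and 1.926 CPM in GFP-negative libraries, so GFP-positive replicate 3 stood apart from the other libraries. The log2 fold change of -1.22 ± 1.01 (SE) came to -0.30 at its nearest to 0, and to -4.18 at its farthest, when 1 library was left out.

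Of the VEGF ligand level per length, Vegfb made up 49.2% and 53.6% in GFP-positive libraries and 50.7% and 57.6% in GFP-negative libraries, and Vegfa 47.5% and 43.0% against 45.9% and 39.0%. Vegfc made up at most 1.61% in any library. The sum of the VEGF ligands was 53.0 and 54.7 CPM per kb in GFP-positive libraries and 48.9 and 52.7 CPM per kb in GFP-negative libraries.

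Kdr (ENSMUSG00000062960, chr5:75932827-75978458, minus strand), the main signalling receptor of VEGF-A, had 117.7 and 69.22 CPM in GFP-positive replicates 2 and 3, against 79.59 and 58.52 CPM in GFP-negative replicates 2 and 6. The ranges overlapped, with means of 93.5 ± 34.3 CPM in GFP-positive cells and 69.1 ± 14.9 CPM in GFP-negative cells (SD, n = 2 each). The log2 fold change was 0.44 ± 0.36 (SE) and came to -0.02 without GFP-positive replicate 2. Kdr is also an endothelial gene, and the summed level of 16 other endothelial markers was 79.3 and 161 CPM in GFP-positive replicates 2 and 3, and 69.1 and 17.0 CPM in GFP-negative replicates 2 and 6. Podxl, the most abundant marker of the list, made up most of each sum, at 74.66 and 86.22 CPM in GFP-positive libraries against 54.96 and 9.181 CPM in GFP-negative libraries, and Erg had 0 counts in all 4 libraries.

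Without Podxl, the other 15 markers had a sum of 4.68 and 74.6 CPM in GFP-positive replicates 2 and 3, against 14.1 and 7.84 CPM in GFP-negative replicates 2 and 6. This sum was lowest in GFP-positive replicate 2, where Kdr was highest. The sum of all 16 markers was lowest in GFP-negative replicate 6 (17.0 CPM), where Kdr was lowest too (58.52 CPM). GFP-positive replicate 2 had counts for 9 of the 16 markers, among them 104 of Egfl7 and 31 of Pecam1, and 0 counts of Cdh5, Tek and Tie1. GFP-positive replicate 3 had counts for 15 of the 16, with 103 of Cdh5, 189 of Tek and 439 of Tie1, and its Kdr level was the third of the 4. GFP-negative replicate 2 had 227 counts of Esam, 203 of Egfl7 and 53 of Pecam1 and 0 of Cdh5, Tek and Tie1, with Kdr at 3332 counts. The part of endothelial transcripts in the Kdr levels was not tested, and the values of the whole list are in the plot of receptors and markers.

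Pdgfrb (ENSMUSG00000024620, chr18:61045150-61085061, plus strand), the receptor of PDGF-B and PDGF-D and a pericyte marker, had 132 and 377 counts in GFP-positive replicates 2 and 3, against 0 and 22 counts in GFP-negative replicates 2 and 6. Levels were 2.885 and 7.922 CPM in GFP-positive libraries and 0 and 0.614 CPM in GFP-negative libraries, the first of which allows up to 0.0717 CPM at a floor of 3 counts per library. Both GFP-positive libraries were higher, and they differed from each other by more than the GFP-negative pair (5.40 ± 3.56 CPM in GFP-positive cells and 0.307 ± 0.434 CPM in GFP-negative cells, SD, n = 2 each; ratio of means 17.6, GFP-positive over GFP-negative). The fitted log2 fold change was 4.23 ± 1.17 (SE), and 3.08 to 10.9 when 1 library was left out. Without GFP-negative replicate 6 the GFP-negative library that remained had 0 counts, so the counts do not set the size of that fold change.

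The summed level of 13 other pericyte markers was 36.5 and 101 CPM in GFP-positive replicates 2 and 3, against 41.5 and 22.0 CPM in GFP-negative replicates 2 and 6, with Vtn the most abundant and Anpep at 0 counts in every library. Rgs5, a defining pericyte gene, had 3 and 629 counts in GFP-positive replicates 2 and 3 and 398 and 127 counts in GFP-negative replicates 2 and 6. Without Vtn the other 12 summed to 19.0 and 47.6 CPM in GFP-positive libraries, against 22.1 and 16.0 CPM in GFP-negative libraries, which overlapped. Ndufa4l2 and Abcc9 were higher in both GFP-positive libraries, as Pdgfrb was. Ndufa4l2 had 15.15 and 25.76 CPM against 9.842 and 9.153 CPM in GFP-negative libraries. Abcc9 had 0.2404 and 2.837 CPM against 0 and 0.1395 CPM, from 11 and 135 counts against 0 and 5. Kcnj8 ran the other way, with 0 counts in both GFP-positive libraries against 26 and 2 counts in GFP-negative libraries. The remaining markers of the list did not separate the fractions. The part of pericyte transcripts in the Pdgfrb difference was not tested.

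Pdgfra (ENSMUSG00000029231, chr5:75152292-75198215, plus strand), the receptor of PDGF-A and PDGF-C, marks retinal astrocytes and oligodendrocyte precursors. Its counts were 106 and 180 in GFP-positive replicates 2 and 3, against 930 and 172 in GFP-negative replicates 2 and 6, or 2.317 and 3.782 CPM against 22.22 and 4.8 CPM. A single library, GFP-negative replicate 2, was high, and the other 3 lay between 2.317 and 4.8 CPM. The log2 fold change of -2.15 ± 0.76 (SE) was -0.71 with that library left out. The summed level of 9 astrocyte markers was 16.1 and 17.8 CPM in GFP-positive libraries, against 65.8 and 34.3 CPM in GFP-negative libraries. Ednrb was the most abundant, and at least 8 of 9 were detected in every library. Without Ednrb the other 8 summed to 10.6 and 16.9 CPM in GFP-positive libraries, against 36.7 and 13.1 CPM in GFP-negative libraries, which overlapped. Gfap, a defining astrocyte gene, had 2.251 and 5.527 CPM in GFP-positive libraries, against 16.34 and 1.591 CPM in GFP-negative replicates 2 and 6. It was highest in GFP-negative replicate 2, as were Aldh1l1, S100b, Aqp4, Gja1 and Ednrb, but lowest in GFP-negative replicate 6. The other markers of the list were highest elsewhere. Pax2 peaked in GFP-negative replicate 6, Slc14a1 in GFP-positive replicate 2 and Cd44 in GFP-positive replicate 3. For 6 markers of oligodendrocyte precursors the sum was 0.612 and 6.07 CPM in GFP-positive libraries, against 3.15 and 2.54 CPM in GFP-negative libraries. Olig2 led this sum, and Sox10 and Neu4 had 0 counts in all 4 libraries. Without Olig2 the other 5 summed to 0.568 and 1.3 CPM in GFP-positive libraries, against 2.84 and 2.26 CPM in GFP-negative libraries, which did not overlap. Among these 5 only Gpr17 separated the fractions, with 0 counts in both GFP-positive libraries against 1.338 and 1.814 CPM in GFP-negative libraries. Olig1 and Bcas1 overlapped, and all these values were low. The part of astrocyte or oligodendrocyte precursor transcripts in the Pdgfra difference was not tested.

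**Figure D3:**
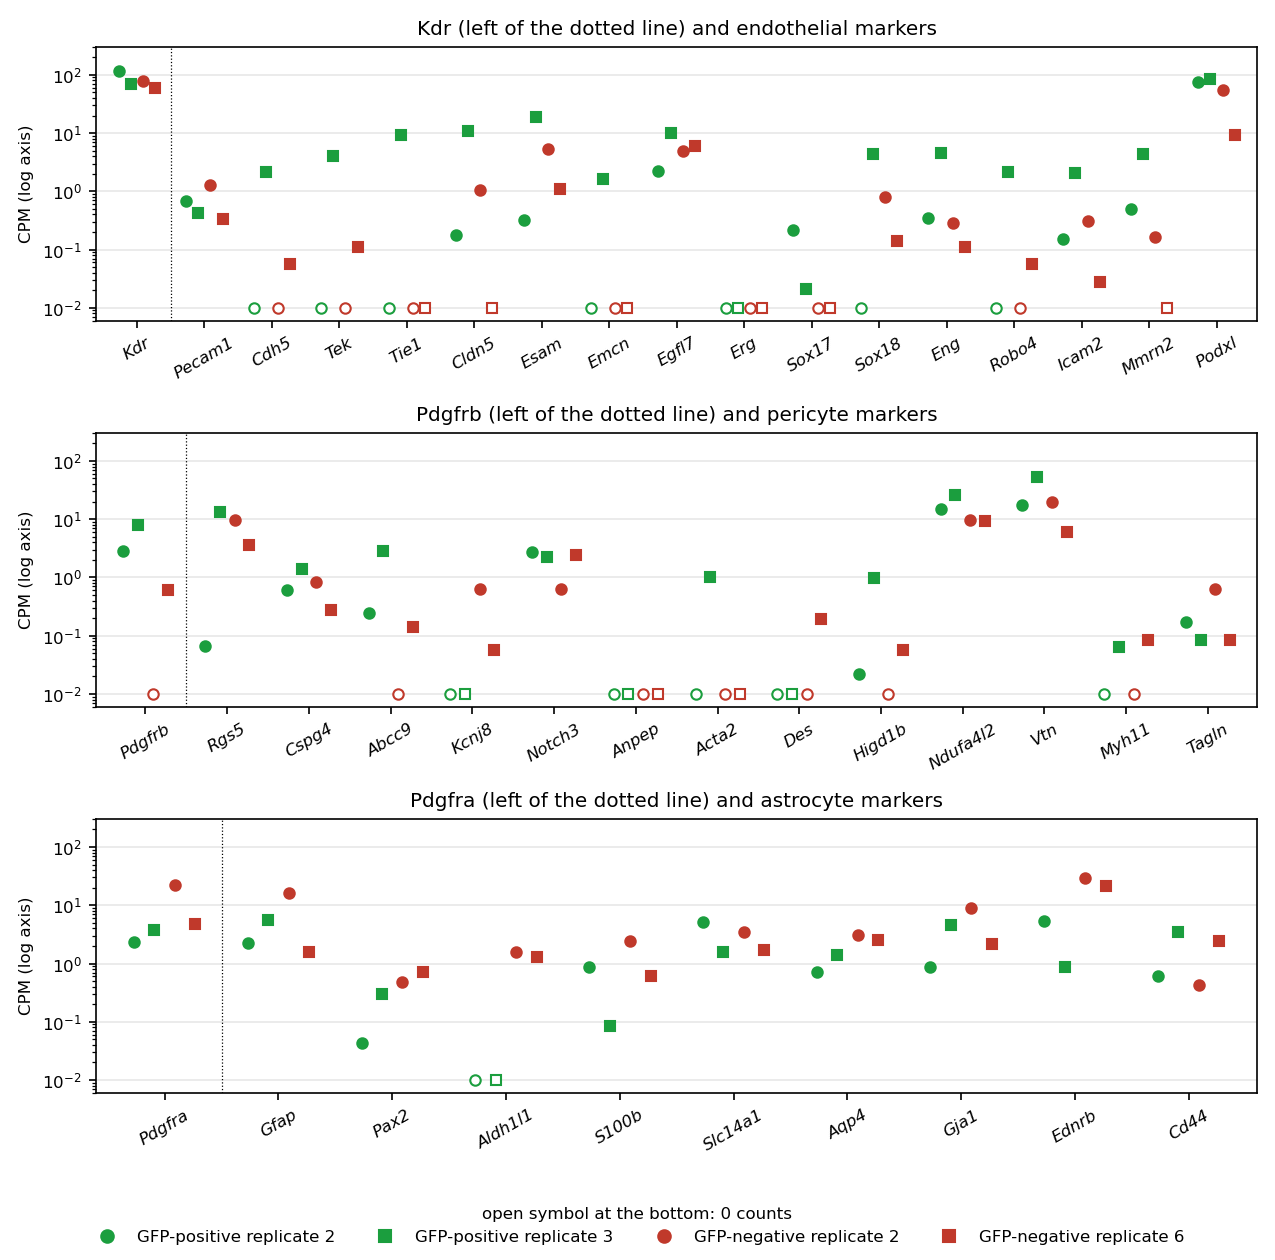
Level in CPM (log axis) of Kdr, Pdgfrb and Pdgfra, each left of the dotted line, and of every gene of the endothelial, pericyte or astrocyte marker list, with GFP-positive libraries in green left of GFP-negative libraries in red and open symbols for 0 counts. Kdr lies between 58.52 and 117.7 CPM while Cdh5, Tek and Tie1 are at 0 counts and Egfl7 and Pecam1 are detected in both GFP-positive replicate 2 and GFP-negative replicate 2. Pdgfra and Gfap are highest in GFP-negative replicate 2, whereas the astrocyte markers Pax2, Slc14a1 and Cd44 are highest in other libraries.

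Counting the 10 genes together, 1 of 10, Pdgfd, passed an adjusted p of 0.05 in the fit over all genes, as did 1.10% of all tested genes (198 of 17940); it was lower in GFP-positive cells, as were 0.870% of all tested genes. The ranges of the fractions did not overlap for 7 of 10 genes, and 43.8% of all tested genes had such ranges. Since the genes were chosen with this contrast known, nothing is read from these shares. The log2 fold change was positive for 6 and negative for 4 of the 10, with a median of 0.09, beside 0.04 for all tested genes.

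Ordered by the mean over the 4 libraries of CPM per kb of exon, the level was 27.6 for Vegfb, 22.9 for Vegfa, 11.8 for Pdgfd, 9.00 for Kdr, 3.77 for Pdgfa, 0.826 for Pdgfra, 0.816 for Pdgfc, 0.566 for Vegfc, 0.521 for Pdgfrb and 0.426 for Pdgfb. This order is a mean over fractions that differ. In GFP-positive cells Pdgfd was the fifth, below Kdr and Pdgfa, and Pdgfra the last, at 1.44 and 0.304 CPM per kb. In GFP-negative cells Pdgfd was the second, at 22.2 CPM per kb beside 21.5 for Vegfa, and Pdgfrb the last, at 0.056 CPM per kb. Only Kdr and Pdgfa, and Pdgfa and Pdgfra, were neighbours in the order of the 4-library mean whose ranges over the 4 libraries did not overlap. With the length of the longest transcript in place of all exons, Kdr at 13.7 CPM per kb passed Pdgfd at 11.9 CPM per kb, and Pdgfb moved above Vegfc and Pdgfrb. Placed among all tested genes by level per kb, Vegfb stood at percentile 88.8 in GFP-positive cells and 87.5 in GFP-negative cells, and Vegfa at 86.8 and 83.8. Pdgfd moved most, at percentile 35.8 in GFP-positive cells and 84.2 in GFP-negative cells. Kdr stood at 71.1 in GFP-positive cells and 64.0 in GFP-negative cells, and Pdgfrb at 30.2 and 3.38.

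**Figure D4:**
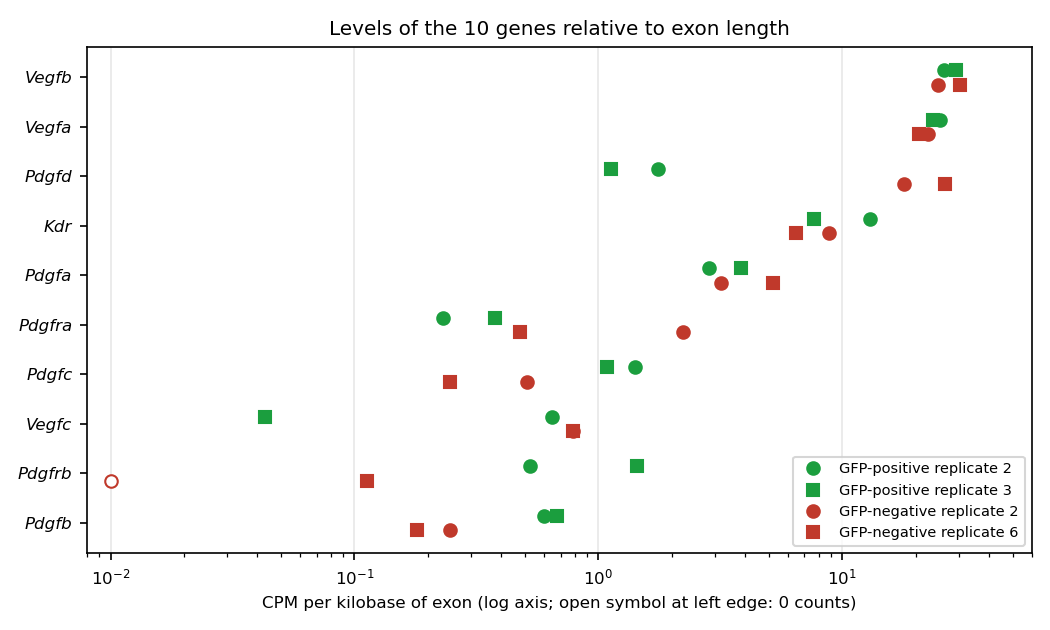
Level in CPM per kb of exon (log axis) of the 10 genes in order of their mean over the 4 libraries, with GFP-positive libraries in green and GFP-negative libraries in red; the open symbol at the left edge stands for 0 counts of Pdgfrb. Vegfb, Vegfa and Kdr lie at 6.48 CPM per kb or above in every library, while Pdgfd lies at 1.75 and 1.13 in GFP-positive libraries and at 17.9 and 26.4 in GFP-negative libraries.

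Of the other ligands and receptors of these families, 0 of the 6 tested passed in edgeR (quasi-likelihood test), DESeq2 or limma-voom. At an unadjusted p under 0.05 there were 0 in edgeR and 1 in DESeq2. Over all tested genes in edgeR, 1.10% passed and 12.6% had an unadjusted p under 0.05, so little can be read from 6 genes. Flt1, the receptor of VEGF-A, VEGF-B and placental growth factor, had 4 and 263 counts in GFP-positive replicates 2 and 3, and 105 and 33 counts in GFP-negative replicates 2 and 6 (log2 fold change 0.69 ± 1.19, SE). Flt4, the receptor of VEGF-C, had 0 and 78 counts in GFP-positive libraries and 224 and 28 counts in GFP-negative libraries (log2 fold change -1.92 ± 1.22, SE). For both genes the spread within a fraction exceeded the difference between fractions. Per length, Kdr made up 99.9% and 92.7% of the VEGF receptor level in GFP-positive libraries and 91.3% and 97.5% in GFP-negative libraries.

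Nrp1, a co-receptor for VEGF-A and semaphorins, had 11.74 and 19.4 CPM in GFP-positive libraries and 11.61 and 18.11 CPM in GFP-negative libraries. Nrp2, its relative that also binds VEGF-C, had 20.83 and 9.162 CPM in GFP-positive libraries and 8.026 and 2.595 CPM in GFP-negative libraries; the ranges did not overlap, and its log2 fold change of 1.48 ± 0.65 (SE) did not pass the test (edgeR, adjusted p = 0.398). Pgf, which encodes placental growth factor, had 3.257 and 5.4 CPM in GFP-positive libraries and 2.604 and 2.902 CPM in GFP-negative libraries (adjusted p = 0.732 in edgeR). Pdgfrl, a receptor-like protein without a kinase, had 27 and 42 counts in GFP-positive libraries and 4 and 22 counts in GFP-negative libraries, and Vegfd had 0 counts in all 4 libraries.

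Over all 4 pathway lists, 74 of 81 genes were tested. At an unadjusted p under 0.05 there were 5 of 74, beside 12.6% of all tested genes. At an adjusted p under 0.05, 1 of 74 passed, lower in GFP-positive cells, and 0 passed as higher. Of all tested genes 1.10% passed in either direction and 0.870% as lower, so 1 of 74 was near that share. The gene that passed was Prkcb (ENSMUSG00000052889), a protein kinase C that acts downstream of Kdr and of many other receptors. It had 104.6 and 48.14 CPM in GFP-positive libraries, against 614.5 and 842.3 CPM in GFP-negative libraries. Both GFP-negative libraries were far above both GFP-positive ones, with a log2 fold change of -3.25 ± 0.47 (SE; edgeR, adjusted p = 0.0204). The call was lost without GFP-positive replicate 2 (adjusted p = 0.0641), GFP-positive replicate 3 (adjusted p = 0.243) or GFP-negative replicate 6 (adjusted p = 0.131), and with edgeR's legacy fit (adjusted p = 0.0733). The other 35 tested genes of the 36 on the receptor signalling list did not pass, and the median of the list was -0.14.

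Among the 20 genes that process or bind the ligands, 16 were tested and 0 passed in edgeR, DESeq2 or limma-voom. In edgeR 1 had an unadjusted p under 0.05. Over all tested genes in edgeR, 1.10% passed and 12.6% had an unadjusted p under 0.05. The median log2 fold change of the list was 0.60. Lrp1, an endocytic receptor that binds PDGFR-β, was the most abundant, at 184.9 and 165.7 CPM in GFP-positive libraries and 167.1 and 196.8 CPM in GFP-negative libraries. Sparc, a matrix protein that binds PDGF-B and VEGF-A, had 98.02 and 202.3 CPM in GFP-positive libraries and 119.9 and 71.3 CPM in GFP-negative libraries. The proteases known to open the CUB-domain ligands were also read, chosen after their values were seen. Plat, which cleaves PDGF-C, had 11.08 and 12.08 CPM in GFP-positive libraries, against 6.521 and 6.837 CPM in GFP-negative libraries, and did not pass (log2 fold change 0.79 ± 0.47, SE; edgeR, adjusted p = 0.538). Plau, which cleaves PDGF-D, was not tested, with 0 counts in both GFP-positive libraries and 0 and 5 counts in GFP-negative libraries. St14, the membrane protease matriptase, which also processes PDGF-D, had 8.611 and 3.698 CPM in GFP-positive libraries and 6.927 and 0.4465 CPM in GFP-negative libraries, which overlapped (log2 fold change 0.70 ± 0.92, SE; edgeR, adjusted p = 0.817).

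The hypoxia pathway regulates Vegfa in many tissues. Of its 16 tested genes (of 18 listed), 0 passed in edgeR, DESeq2 or limma-voom, and 0 had an unadjusted p under 0.05 in edgeR. Over all tested genes these edgeR shares were 1.10% and 12.6%, so little can be read from 0 of 16. The median log2 fold change of the list was 0.08. Ldha, a glycolytic target, had 1337 and 2223 CPM in GFP-positive libraries and 1631 and 1238 CPM in GFP-negative libraries. Hif1a, the oxygen-regulated factor, had 768.9 and 526.7 CPM in GFP-positive libraries and 731 and 535.8 CPM in GFP-negative libraries. Both genes overlapped between fractions.

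**Figure D5:**
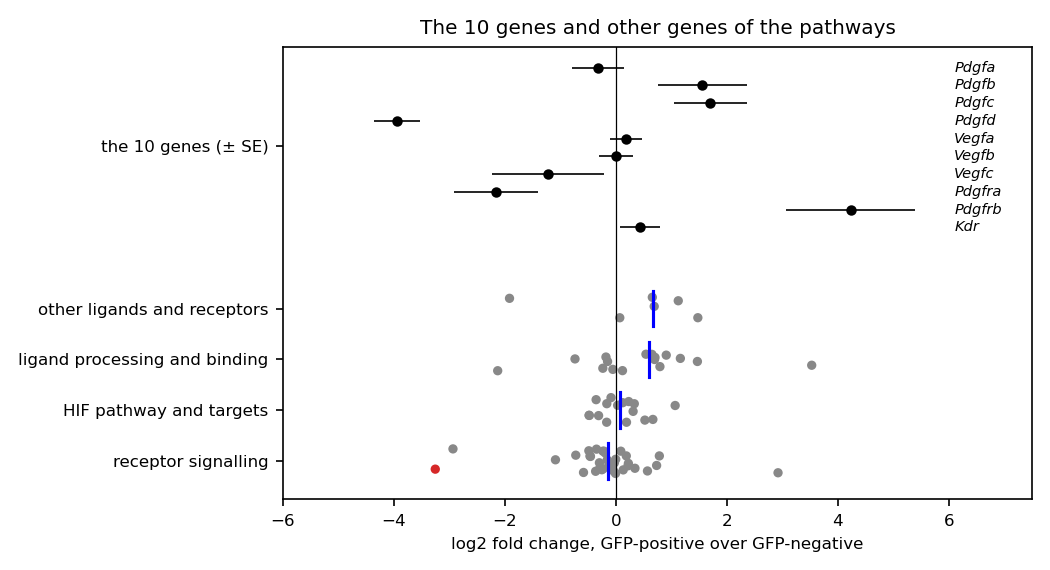
Log2 fold change, GFP-positive over GFP-negative, of the 10 genes (black, with bars of 1 SE) and of the tested genes of each pathway list (1 point per gene, red for an adjusted p under 0.05 in the edgeR fit and grey for the others), with a blue line at the median of each list. The 1 red point is Prkcb at -3.25, Pdgfd lies at -3.95 and Pdgfrb at 4.23, and the medians of the 4 lists lie between -0.14 and 0.68.

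For the 6 genes with a mean of at least 5 CPM, the tested genes with the most similar profile over the 4 libraries were found by the Euclidean distance between centred log2(CPM + 0.5) values, among 13823 candidates. Nearest to Pdgfd were Spp2 (distance 0.152), C1ql2 (0.165) and Cxcl14 (0.237). Of these, C1ql2, a C1q-like synaptic protein, had 27.5 and 17.4 CPM in GFP-positive libraries, against 287 and 422 CPM in GFP-negative libraries. Cxcl14, a chemokine, had 129 and 72.7 CPM against 1110 and 1860 CPM. Spp2 had 0.153 and 0 CPM against 5.71 and 9.01 CPM, so its distance depends in part on the added 0.5 CPM. Nearest to Kdr were Upf1, Crebrf and Taf4, and nearest to Vegfa were Actr5, Ift52 and Patz1, all at distances of 0.0314 to 0.0872. Rrp7a, Pycard and Mrpl3 were nearest to Vegfb, and Spcs2, Aig1 and Manbal to Pdgfa. The nearest to Pdgfra, Scn11a, Ppp1r3b and Lsp1, were all highest in GFP-negative replicate 2, at 3.37, 2.6 and 4.16 CPM. Elsewhere these genes had at most 0.977 CPM, so their distances depend in part on the added 0.5 CPM. With 4 libraries in 2 fractions, a small distance is a description of these 4 values only.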

How the data were processed

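The authors deposited raw read counts per Ensembl gene for 4 SMART-Seq libraries. Per the submitters' processing notes, which give no roles, Trimmomatic, STAR 2.7.3a, MultiQC, limma and GRCm38 are listed; for the counting tool, annotation and strand setting, nothing is given in the sources used here. Gene coordinates and lengths came from GENCODE mouse release M21, which held 55144 of the 55471 gene IDs, and promoters from RefSeq (GRCm38.p6), read for 8 of the 10 genes. 27 symbols that had turned into dates were looked up by ID. A second deposited table of scaled CPM values was not used here.

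Groups came from the fluorescence labels. The submitters describe 4 biological replicates from 3 litters, with a sample of each fraction from each animal; the other replicates were not analysed here. The test was that of edgeR 4.0.16 (R 4.3.3; TMM scaling; filterByExpr with a minimum count of 10 and a minimum total of 15; glmQLFit with robust=TRUE and legacy=FALSE; glmQLFTest; Benjamini-Hochberg over 17940 genes; calls at adjusted p under 0.05), run as GFP-positive minus GFP-negative. The script was tested on simulated data. CPM values use effective library sizes. Each standard error is the size of the log2 fold change divided by the square root of its F. A count of 3 was taken as the floor, 0.0630 to 0.0837 CPM by library; it covers counting error only, because PCR reads that carry no molecular identifier are not independent.

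The 10 genes, the pathway and marker lists and the tests were chosen with earlier results of these data known. Named genes are the 10, every other ligand and receptor, from each other list up to 4 called genes with the smallest adjusted p or else the 2 most abundant, the 3 nearest profiles of each of the 10 with a mean of at least 5 CPM, and of the marker lists their sums and most abundant gene (for some lists not reported here); Gbx2 checks the sort. Cdh5, Tek, Tie1, Erg, Egfl7, Pecam1, Esam, Rgs5, Anpep, Ndufa4l2, Abcc9, Kcnj8, Gad1, Tfap2c, Calb2, Gfap, Sox10, Neu4, Pax6, Plat, Plau and St14 were named, and marker sums without the most abundant gene computed, after their values were seen. Aldh1l1, S100b, Aqp4, Gja1, Pax2, Slc14a1, Cd44, Gpr17, Olig1 and Bcas1 were also named after their values were seen. The alternatives were other scalings, filters and tools, the longest transcript as length, and leaving out each library; edgeR's legacy fit was added after seeing the data.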

Additional observations from a re-analysis of the deposited data

How the results depend on the processing

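Over all genes, the 198 calls became 106 with no filter on low counts, 131 with limma-voom, 794 with DESeq2 (of 17244 genes with an adjusted p) and 48 with edgeR's legacy fit, which was chosen after seeing the data. Leaving out 1 library gave 1 to 336 calls. With GFP-positive replicate 2 left out there were 108, with GFP-positive replicate 3 left out 5, with GFP-negative replicate 2 left out 336, and with GFP-negative replicate 6 left out 1. Of the 10 genes, Pdgfd alone was called in the analyses that kept all 4 libraries. That call was lost without GFP-positive replicate 3 or without GFP-negative replicate 6. Because the 10 genes were chosen with this contrast known, their calls are no test of them, and nothing is read from these calls. Of the pathway genes, 0 were called with the legacy fit, 2 with DESeq2 (Prkcb and Shb) and 0 to 3 when 1 library was left out. Fits without 1 library leave a fraction with a lone sample, assumed to vary like the other fraction. No log2 fold change of Pdgfb, Pdgfc, Pdgfd, Pdgfra, Pdgfrb, Vegfa or Vegfc changed sign under any alternative that could be fitted; the filter at 5 CPM in 2 libraries dropped Pdgfb, Pdgfra, Pdgfrb and Vegfc. Those of Pdgfa, Kdr and Vegfb did in 1, 1 and 5 of 13 analyses. The causes were not tested. No paired analysis was possible because the fractions share only replicate number 2. With 2 libraries per fraction, a biological coefficient of variation of 55.4% and counts under 100 for several of the genes, small differences were not detectable.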

Other observations

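Markers of 3 further cell types are given here as values. In GFP-positive replicates 2 and 3 and then GFP-negative replicates 2 and 6, the summed levels were 380, 733, 441 and 113 CPM for 8 cone markers (led by Opn1sw), 36.8, 116, 104 and 69.1 CPM for 8 microglia markers and 4.35, 4.88, 2.72 and 0.112 CPM for 5 erythrocyte markers (led by Hbb-bs). The cone and microglia sums overlapped between the fractions, and the erythrocyte sums were higher in both GFP-positive libraries.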
